A study of Mus musculus with 22 samples.

Results

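The genes described here are the 46 rows whose symbol starts with Nduf, among the 48709 genes listed in both count tables of this series. They encode the nuclear subunits and named assembly factors of respiratory complex I, and were taken by symbol. By role they are 7 core subunits, 29 accessory subunits, 7 assembly factors (Ndufaf1 to Ndufaf7), Ndufa4 and Ndufa4l2, which bear the name but are not subunits of complex I, and the pseudogene Ndufab1-ps. The libraries are of poly(A) RNA of ventricles, taken from mouse embryos at E13.5 that carry Nkx2.5-Cre, a driver that deletes floxed alleles in cardiac precursor cells and their descendants, so that other cells of the ventricle keep both genes. The first experiment compared LIN9 wt with LIN9 KO ventricles in 3 libraries each, and its labels name no Sav1 genotype. The second held 4 genotypes of 3 libraries each, namely LIN9 wt or LIN9 KO, each with Sav1 wt or Sav1 KO. LIN9 KO stands for Lin9 fl/fl, with LoxP sites around exon 7, and Sav1 KO for Sav1 fl/fl, with LoxP sites around exon 3. Controls are called wild-type in the labels and Lin9 fl/+ in the results and figure captions of the study. They may therefore lack Lin9 on a single allele in the Cre-expressing cells. The study describes the LIN9 comparison as a pair of biological replicates, each done in triplicate, and neither source says whether each library came from a single embryo. Within an experiment, p-values therefore measure only the spread between these libraries, which may be technical.

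Complex I is the largest enzyme of the respiratory chain of mitochondria. It oxidises NADH in a peripheral arm that reaches into the matrix, passes the electrons along iron-sulfur clusters to ubiquinone, and pumps protons through a membrane arm. The core subunits carry the chemistry and are conserved from bacteria. The nuclear genome encodes the core of the peripheral arm and mitochondrial DNA that of the membrane arm (mt-Nd1 to mt-Nd6 and mt-Nd4l), while accessory subunits surround and stabilise the core. Assembly factors build the complex and are not part of the finished enzyme. Heart muscle is among the tissues richest in mitochondria, and its respiratory chain matures as the heart develops. LIN9 is a subunit of the MuvB complex, which binds promoters of cell cycle genes, and SAV1 is a scaffold of the Hippo kinases, which restrain the co-activator YAP.

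Total counts were 9485599 to 9615274 per library in the first and 2770741 to 2999877 in the second experiment, and 0.323% to 0.549% of these counts fell on Nduf genes. Counts are given as CPM, the count as a share of the TMM-normalized library scaled to 1e6. Of the 46 members, 44 passed the filter of a mean count above 1 in both experiments, and the same number passed within each of the 6 groups taken alone. The others were Ndufa13, a membrane arm subunit whose exons lie entirely within the span of other genes (Yjefn3 and Tssk6), and Ndufab1-ps, which lies within Blm. Both are listed at 0 in all 18 libraries, as is the cardiac actin gene Actc1, so a listed 0 does not show that a gene is silent in these data. Other members also share their exonic length with neighbours in the annotation, most of all Ndufaf2 (65.6% under other exons) and Ndufb6 (39%), followed by Ndufb9 (19.5%), Ndufb11 (12.9%), Ndufb5 (12.3%) and Ndufa2 (11.5%), and reads from such stretches may be missing. In the group with Lin9 deleted and wild-type Sav1, replicate 3 stood apart, with a chi-square per gene of 19.5 and 13.8 against replicates 1 and 2, which differed from each other by 5.81. Control replicate 1 of the second experiment also stood apart, with 4.54 and 4.74 against 1.2 between the others. So did replicate 1 of the group with both genes deleted, with 5.23 and 6.7 against 2.66. Calls of the LIN9 comparisons that change without any of these libraries are given beside the results. In the deeper first experiment, the LIN9 KO replicates differed from each other by 15.0 to 24.1, and the LIN9 wt replicates by 5.29 to 9.48. As a check of the labels, Lin9 was at 29.8, 21.4 and 25.6 CPM in LIN9 wt and 21.4, 21.3 and 19.2 CPM in LIN9 KO ventricles of the first experiment (log2 fold change -0.31, standard error 0.14, adjusted p = 0.13). In the second it fell with wild-type Sav1 (-0.80, adjusted p = 0.0027), while with Sav1 deleted the value was -0.16 (adjusted p = 0.586). Sav1 differed by -0.50 with Lin9 present and -0.23 with Lin9 deleted (adjusted p = 0.318 and 0.464), and fell by 0.44 on the log2 scale in the double knockout against the controls (adjusted p = 0.00873; without control replicate 3, 0.0534). These counts cover the whole genes, of which the deletions remove 1 exon each, and therefore check the labels only in part.

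Promoter windows of 39 members were matched by symbol to RefSeq entries on GRCm38.p6. Each ran from 250 bases before to 50 bases after the start given in that entry. They were searched on both strands for the cell cycle homology region (CHR, written TTTGAA or TTCGAA), which the MuvB subunit LIN54 binds, for E2F (TTTCCCGC or TTTGGCGC), ETS (CCGGAAGT) and oestrogen-related receptor (TCAAGGTCA) motifs and for the palindromic motif of nuclear respiratory factor 1 (NRF1), a regulator of nuclear genes for mitochondrial proteins. The windows of 4 members are shown, chosen after values and matches were seen because they differ in their response to LIN9 loss and in the motifs found: Ndufaf4, Ndufs6 and Ndufb10, the assembly factor and the accessory subunits with the largest decreases in the first experiment, and Ndufa1, which passed the test in none of the LIN9 comparisons. Each is written 5′ to 3′ on the strand of the gene, in lower case with matches in capitals (NRF1 at bases 138 to 147 of Ndufaf4, CHR at bases 114 to 119 of Ndufs6 and at bases 38 to 43 of Ndufa1; no match in Ndufb10). The windows lie at chr4:24897833-24898132 (plus strand), chr13:73328433-73328732 (minus strand), chr17:24724374-24724673 (minus strand) and chrX:37191189-37191488 (minus strand), in the same order. In the GENCODE M21 annotation used for exonic lengths, Ndufa1 starts at chrX:37191163, so its window and CHR lie wholly upstream of that start.
Ndufaf4: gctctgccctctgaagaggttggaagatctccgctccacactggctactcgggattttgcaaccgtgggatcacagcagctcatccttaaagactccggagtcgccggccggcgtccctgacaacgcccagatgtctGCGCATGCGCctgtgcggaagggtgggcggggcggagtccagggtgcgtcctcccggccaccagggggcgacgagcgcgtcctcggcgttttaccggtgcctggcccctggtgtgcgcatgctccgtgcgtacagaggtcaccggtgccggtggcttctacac
Ndufs6: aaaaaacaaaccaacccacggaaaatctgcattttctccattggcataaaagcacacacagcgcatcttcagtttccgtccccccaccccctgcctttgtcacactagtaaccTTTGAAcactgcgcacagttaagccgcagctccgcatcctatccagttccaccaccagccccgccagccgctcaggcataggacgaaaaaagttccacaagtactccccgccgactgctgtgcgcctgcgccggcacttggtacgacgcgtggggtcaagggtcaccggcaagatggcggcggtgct
Ndufb10: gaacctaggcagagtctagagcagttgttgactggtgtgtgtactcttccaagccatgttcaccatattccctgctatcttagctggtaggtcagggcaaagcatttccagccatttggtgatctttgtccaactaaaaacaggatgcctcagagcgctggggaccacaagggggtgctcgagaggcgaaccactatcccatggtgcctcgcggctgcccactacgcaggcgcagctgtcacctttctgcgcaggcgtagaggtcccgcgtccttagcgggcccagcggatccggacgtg
Ndufa1: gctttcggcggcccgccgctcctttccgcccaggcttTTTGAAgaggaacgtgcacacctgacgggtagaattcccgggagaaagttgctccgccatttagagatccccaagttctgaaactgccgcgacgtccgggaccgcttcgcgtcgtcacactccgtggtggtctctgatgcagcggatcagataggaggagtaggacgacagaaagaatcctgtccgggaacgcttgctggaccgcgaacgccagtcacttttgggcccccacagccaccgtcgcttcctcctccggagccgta

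A CHR was present in the windows of 4 of 39 members (10.3%), namely Ndufa1, Ndufb11, Ndufs4 and Ndufs6, against 21.7% of the 27025 genes with such an entry. NRF1 was found in 3 members (7.69%, against 1.07% of all genes), namely Ndufa11, Ndufaf4 and Ndufaf5. ETS was found in 1 (Ndufs3; 2.56% against 4.31%), and E2F and oestrogen-related receptor motifs in none (against 1.8% and 0.466%). Of the 23 subunits with a window that were lower in all 3 LIN9 comparisons below, 2 had a CHR, and of the 6 that passed in none of them, 1 did. These shares describe exact matches to the letters in these windows and carry no test, and a match is not a bound site.

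Levels of the members were compared with each other per kilobase of exonic length (CPM per kb), over the union of annotated exons. In LIN9 wt ventricles of the first experiment the core subunits had a median of 82.8 CPM per kb, and the assembly factors between 8.09 and 22.5 (median 18.9). Ndufs1, at 21.4 CPM per kb, was the core subunit within the range of the assembly factors. The medians in control ventricles of the second experiment were 76.6 and 17.3 CPM per kb. The accessory subunits spread more widely. Their highest was Ndufc2, a membrane arm subunit, at 227 ± 27.2 CPM per kb (SD, n = 3), and next to it Ndufa4 at 226 ± 25.6, a difference far within their spread. The lowest tested members were Ndufb2, a distal membrane arm subunit (4.99 ± 0.180), and Ndufa4l2 (5.16 ± 0.956), which likewise did not differ beyond their spread. In the controls of the second experiment the same pair closed the order, with Ndufa4l2 last (3.93 against 4.37). Ndufb2 (5628 bases) and Ndufs1 (8086 bases) have long exonic unions over all annotated transcripts, and a longer union gives a lower value per kb.

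Most complex I transcripts were lower after loss of LIN9. In the first experiment 30 of 44 tested members were lower and 1 higher in LIN9 KO ventricles at an adjusted p under 0.05, where 9.78% of all 19752 tested genes were called lower and 11.1% higher. In the second experiment, 34 were lower and 1 higher with wild-type Sav1 (all genes, 10.5% lower and 12.8% higher of 17675), and 31 lower and 1 higher with Sav1 deleted (11.6% and 11.8%). Without replicate 3 of LIN9 KO with wild-type Sav1, the 34 became 32, as Ndufs5 (-0.38, adjusted p = 0.0788) and Ndufb11 (-0.30, 0.122) were no longer called. Without control replicate 1 it became 30, with Ndufs5 (-0.43, 0.0505), Ndufb11 (-0.21, 0.247), Ndufaf1 (-0.54, 0.0513) and Ndufaf3 (-0.43, 0.233) no longer called. Lower calls over all genes were 1841 and 1734 in these fits, against 1849 with all libraries. The member called higher was Ndufa4l2 in each case. Of the 36 complex I subunits, 35 could be tested, and 27, 28 and 27 of them fell in the 3 comparisons, with none called higher. Their median log2 fold changes were -0.50, -0.60 and -0.58, against medians of 0.02, 0.01 and 0.03 over all tested genes. In all 3 comparisons 26 subunits were called lower, 2 in 2 of them (Ndufb11 and Ndufs5) and 7 in none. Not all of these calls held under the other settings tried. With Sav1 deleted, Ndufb4 was called lower under 5 of 14 other settings and Ndufb2 under 13. In the first experiment Ndufs5 was called under 7 of 13, Ndufc2 under 10, Ndufb6 under 11 and Ndufs4 under 12. With wild-type Sav1, Ndufs5 was called under 10 of 14 and Ndufb11 under 8. The plot of library medians shows that each LIN9 KO library lay below each LIN9 wt library for core subunits, accessory subunits and assembly factors alike.

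**Figure D1:**
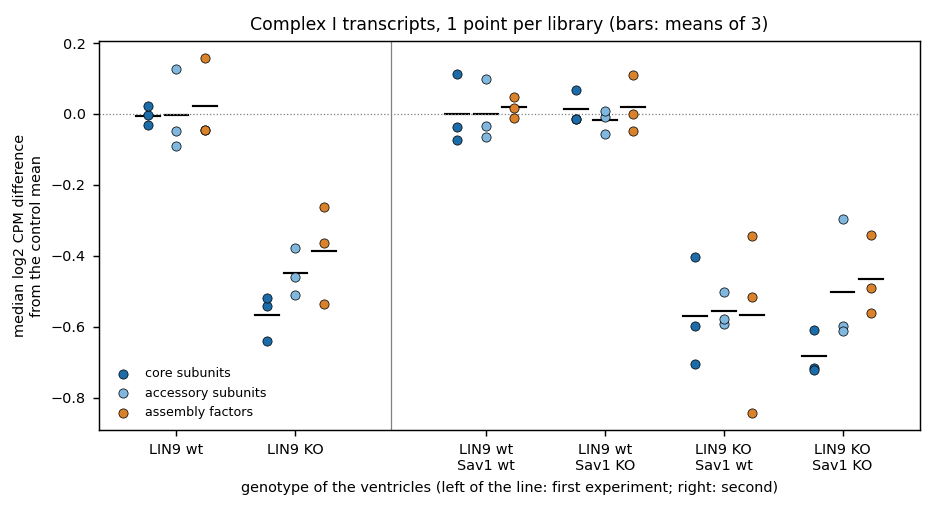
Median log2 CPM difference from the mean of the control libraries (vertical axis) over the core subunits, accessory subunits and Ndufaf assembly factors, 1 point per library, with the mean of 3 libraries as a bar, for the 6 genotype groups (horizontal axis). All LIN9 KO libraries lie between -0.843 and -0.263, and all LIN9 wt libraries, with or without Sav1, between -0.089 and 0.157.

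All 7 core subunits fell in all 3 LIN9 comparisons, with log2 fold changes from -0.87 to -0.42. Ndufs7, which carries the last iron-sulfur cluster before ubiquinone, had the largest decrease of the core in the first experiment, from 126, 134 and 154 to 84.6, 86.1 and 83.6 CPM (-0.70, standard error 0.10, adjusted p = 0.000221). In the second it was at 136, 119 and 114 CPM in controls, 135, 134 and 139 with Sav1 deleted, 92.7, 79.1 and 67.9 with Lin9 deleted and 79.8, 71.5 and 72.6 with both deleted. The LIN9 KO libraries lay below the LIN9 wt libraries in each background, without overlap. It fell by 0.62 with wild-type Sav1 and by 0.87 with Sav1 deleted on the log2 scale (adjusted p = 0.000127 and 1.57e-06). In no LIN9 comparison did LIN9 KO and LIN9 wt libraries of a core subunit overlap. The share of all tested genes without such overlap was not computed, so how unusual this is was not tested.

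Ndufv1, which binds the NADH and flavin with which electron transfer starts, fell from 332, 347 and 330.5 to 216, 227 and 222 CPM in the first experiment (-0.60, adjusted p = 0.000617). Its log2 fold changes in the second were -0.66 and -0.67. Ndufv2, its iron-sulfur partner in the NADH dehydrogenase module, fell from 245, 254 and 315 to 168, 157 and 196 CPM (-0.64, adjusted p = 0.00173) and by 0.60 and 0.70 on the log2 scale in the second. Ndufs1, the large iron-sulfur subunit of the same module, fell by 0.59 on the log2 scale in the first experiment, from 177, 174 and 169 to 113, 129 and 103 CPM (adjusted p = 0.0011), and its 3 LIN9 KO libraries were well separated from the controls. The second experiment gave -0.71 and -0.69. Ndufs3 and Ndufs8, core subunits of the quinone-binding module, had log2 fold changes of -0.55 and -0.50 in the first experiment, -0.60 and -0.42 with wild-type Sav1, and -0.63 and -0.60 with Sav1 deleted. The smallest core decrease, that of Ndufs8 with wild-type Sav1, went from 103, 95.6 and 97.5 to 76.9, 69.9 and 75.3 CPM (adjusted p = 0.00602), again with no overlap. Reads of Ndufs3 may be split with a near-identical copy, Gm12251, and those of Ndufb11 with Gm6444.

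**Figure D2:**
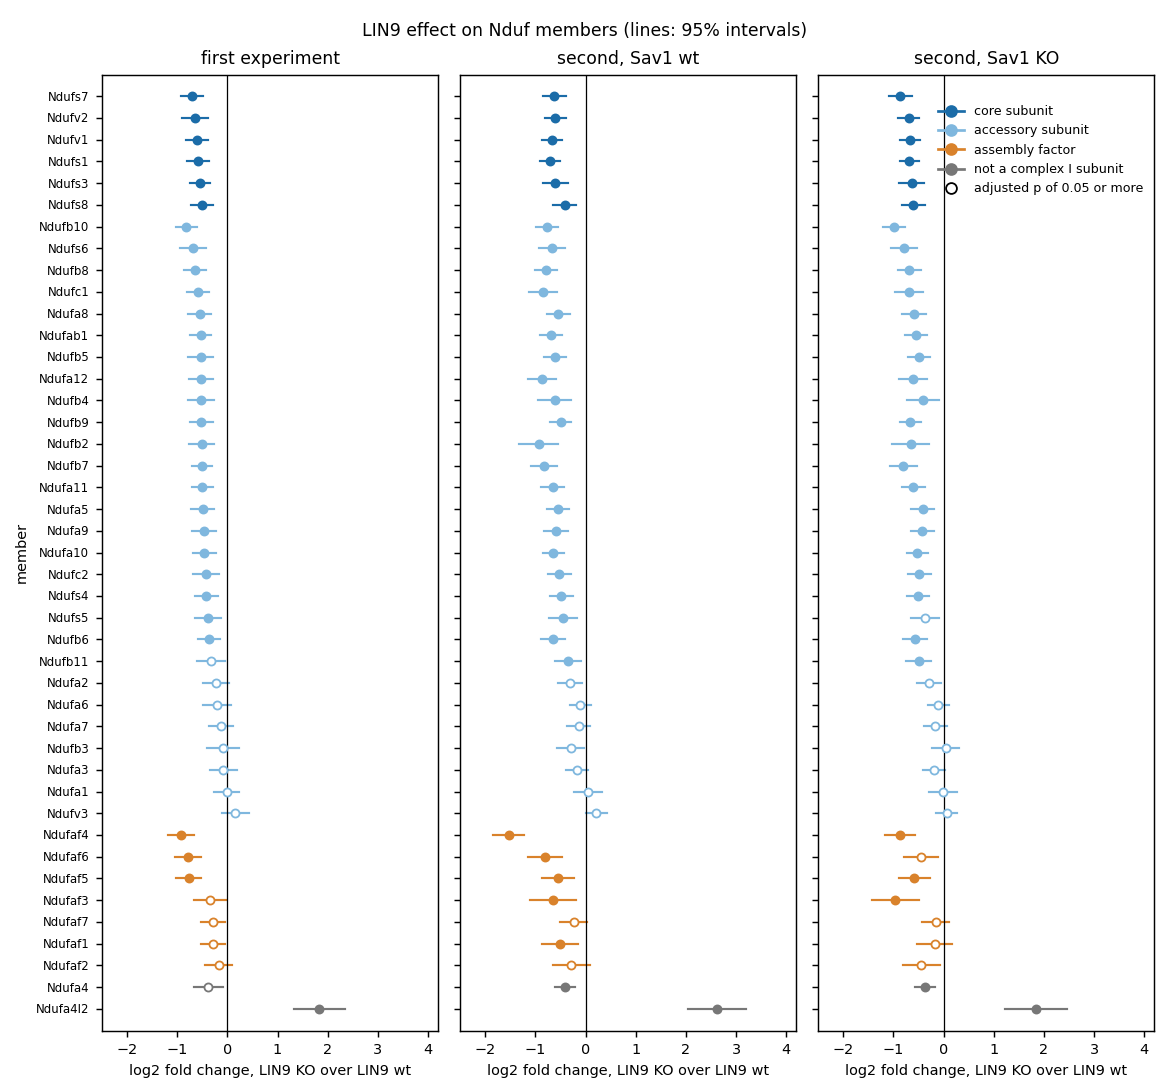
Log2 fold change of LIN9 KO over LIN9 wt (horizontal axis) for tested members (vertical axis), grouped by class and ordered within it by the first experiment, in the 3 LIN9 comparisons, with 95% intervals as lines and filled points for an adjusted p under 0.05. The core subunits shown lie between -0.87 and -0.42, 7 accessory subunits stay unfilled in all 3 panels, and Ndufa4l2 lies above 1.8 in each.

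Of the 28 tested accessory subunits, 20, 21 and 20 fell in the 3 comparisons, with medians of -0.48, -0.57 and -0.50. The largest decrease in the first experiment was that of Ndufb10, a subunit of the distal membrane arm, at 118, 129 and 136 CPM in LIN9 wt and 71.8, 71.4 and 73.5 CPM in LIN9 KO ventricles (-0.82, standard error 0.10, adjusted p = 4.07e-05). The second experiment gave 115, 104 and 113 CPM in controls, 129, 114 and 126 with Sav1 deleted, 73.0, 62.0 and 60.4 with Lin9 deleted and 66.5, 57.4 and 61.2 with both deleted. In both experiments each LIN9 KO library lay well below each LIN9 wt library. Ndufs6, a zinc-binding subunit of the peripheral arm that is added late in assembly, fell from 60.4, 54.7 and 71.1 to 37.7, 35.1 and 43.5 CPM (-0.68, adjusted p = 0.000947) and by 0.67 and 0.79 on the log2 scale in the second experiment. Ndufb8, a distal membrane arm subunit often used on blots as a marker of assembled complex I, fell from 117, 136 and 143 to 85.7, 84.9 and 83.7 CPM (-0.64, adjusted p = 0.000463), and by 0.78 and 0.68 in the second. The LIN9 KO libraries of both subunits were below all their controls. Ndufc1 and Ndufa8, subunits of the proximal membrane arm, completed the 5 largest decreases with -0.59 and -0.56 in the first experiment (adjusted p = 0.000875 and 0.00138), and -0.85 and -0.54, then -0.69 and -0.59, in the second.

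The decreases were spread over both arms of the enzyme. In the peripheral arm, core subunits included, 12 of 16 tested subunits fell in each of the 3 comparisons (medians -0.52, -0.57 and -0.61). In the proximal membrane arm 6, 6 and 5 of 8 fell (medians -0.44, -0.53 and -0.50), and in the distal membrane arm 8, 9 and 9 of 10 (medians -0.51, -0.63 and -0.62). Ndufab1, the mitochondrial acyl carrier protein that sits in both arms, fell in all 3 (-0.53, -0.68 and -0.55). Ndufc2 and Ndufb2, at the ends of the order of levels, had log2 fold changes of -0.42 and -0.51 in the first experiment (adjusted p = 0.0203 and 0.00576), so a decrease was measured at high and low levels. The call of Ndufc2 was lost without LIN9 KO replicate 1 (adjusted p = 0.0830), without LIN9 KO replicate 2 (0.0661) or without LIN9 wt replicate 3 (0.125), and that of Ndufb2 with Sav1 deleted without double knockout replicate 2 (0.0618).

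A group of 7 accessory subunits, Ndufa1, Ndufa2, Ndufa3, Ndufa6, Ndufa7, Ndufb3 and Ndufv3, passed the threshold in none of the 3 LIN9 comparisons. They belong to different parts of the enzyme, 4 to the peripheral arm, 2 to the proximal and 1 to the distal membrane arm. Their levels in the first controls had a median of 68.8 CPM per kb, beside 74.7 for the 26 subunits lower in all 3, while their exonic lengths were shorter, with a median of 1022 against 2008.5 bases. Ndufv3, a small subunit of the NADH dehydrogenase module, was the only subunit with a positive value in all 3. It was at 125, 125 and 141 CPM in LIN9 wt and 140.1, 122 and 176 CPM in LIN9 KO ventricles of the first experiment (0.16, 95% interval -0.11 to 0.43, adjusted p = 0.427), and the groups overlapped. Under the other settings this value ran from 0.0038 to 0.275. The values of the second experiment were 0.22 (interval 0.0081 to 0.42, adjusted p = 0.132) and 0.059 (-0.15 to 0.27, 0.733). Ndufa1, encoded on the X chromosome and part of the proximal membrane arm, was at 52.8, 54.6 and 66.8 CPM in LIN9 wt and 57.7, 52.0 and 62.6 CPM in LIN9 KO ventricles. Its log2 fold changes of -0.016, 0.053 and -0.012 had intervals that together ran from -0.29 to 0.33. Ndufa3, of the same region, gave -0.083, -0.17 and -0.19, with lower interval bounds of -0.35, -0.39 and -0.41. The intervals of Ndufa1 and Ndufa3 do not reach the median decrease of the subunits in the same comparison. Ndufa2, with -0.23, -0.31 and -0.29, was called lower under 8 of 14 other settings with wild-type Sav1 (adjusted p = 0.0501 in the fit used here) and under 3 of 14 with Sav1 deleted. Among these settings, a block for replicate number called it lower in both backgrounds (edgeR, adjusted p = 0.0265 and 0.0367). Without LIN9 KO replicate 3 of the first experiment, Ndufa2 (-0.37, adjusted p = 0.0156) and Ndufa6 (-0.34, 0.035, against -0.21 with it) were called lower. Without LIN9 KO replicate 1 of the wild-type Sav1 group, Ndufb3 was called lower (-0.43, 0.0241, against -0.30 with it). With Sav1 deleted, Ndufa2 was called lower without double knockout replicate 1 (-0.42, adjusted p = 0.0131).

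The 7 Ndufaf assembly factors were all negative in all 3 LIN9 comparisons, and 3, 5 and 3 of them passed the threshold, with medians of -0.34, -0.54 and -0.45. These medians stand beside -0.59, -0.60 and -0.67 for the core and -0.48, -0.57 and -0.50 for the accessory subunits. The assembly factors spread more than the core, from -0.93 to -0.17 in the first experiment against -0.70 to -0.50. With 7 genes at lower counts, no difference between the classes was tested.

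Ndufaf4, a factor that acts early in the assembly of the peripheral arm, had the largest decrease of all members in the first experiment, from 71.9, 64.8 and 85.1 CPM in LIN9 wt to 44.0, 38.0 and 34.6 CPM in LIN9 KO ventricles (-0.93, standard error 0.12, adjusted p = 9.61e-05). In the second experiment it was at 62.2, 71.9 and 68.1 CPM in controls, 60.6, 75.0 and 72.7 with Sav1 deleted, 23.3, 22.0 and 24.6 with Lin9 deleted and 49.1, 29.6 and 35.2 with both deleted. The LIN9 effect was thus -1.53 with wild-type Sav1 and -0.87 with Sav1 deleted (standard errors 0.15 and 0.14, adjusted p = 1.89e-08 and 4.66e-05). All double knockout libraries were above all LIN9 KO libraries of the second experiment. Of the 44 tested members, 1 was separated in this direction and 2 in the other, and the share over all genes was not computed. For Ndufaf4, neither the effect of Sav1 loss with Lin9 deleted nor the interaction passed the adjustment in the main fit, as given below. Ndufaf5, which modifies Ndufs7 during assembly, fell from 37.1, 37.3 and 46.1 to 23.5, 23.0 and 24.2 CPM (-0.77, adjusted p = 0.000315), and by 0.54 and 0.58 on the log2 scale in the second experiment. Ndufaf6, needed for early assembly of the membrane arm, fell from 26.1, 27.6 and 27.1 to 15.2, 15.5 and 16.1 CPM (-0.79, adjusted p = 0.00028). It fell again with wild-type Sav1 (-0.81, adjusted p = 0.000699), while the value with Sav1 deleted was -0.45 (adjusted p = 0.0509), just outside the threshold. The call with wild-type Sav1 did not depend on any single library.

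The other assembly factors were less uniform. Ndufaf3, which works with Ndufaf4, was at 16.3, 15.3 and 18.6 CPM in LIN9 wt and 13.6, 11.4 and 14.5 CPM in LIN9 KO ventricles, separate but not past the threshold (-0.34, adjusted p = 0.117). In the second experiment it fell by 0.64 with wild-type Sav1 and by 0.96 with Sav1 deleted (adjusted p = 0.0382 and 0.00214). Ndufaf1, an intermediate-stage factor of the membrane arm, passed only with wild-type Sav1 (-0.51, adjusted p = 0.0327), with -0.28 and -0.18 elsewhere. The value of -0.18, with Sav1 deleted, ran from -0.39 to -0.063 under the other settings and was called in none of them. With wild-type Sav1, the calls of Ndufaf1 and Ndufaf3 rested on single libraries. Both were lost without LIN9 KO replicate 2 (adjusted p = 0.163 and 0.156), without control replicate 1 (0.0513 and 0.233) and without control replicate 2 (0.0554 and 0.0555), which left 3 called factors, and the call of Ndufaf1 also without control replicate 3 (0.0900). That of Ndufaf5 in the same comparison was lost without LIN9 KO replicate 1 (0.0511). Ndufaf2, a late-stage factor whose gene shares most of its exons with neighbours, and Ndufaf7, a methyltransferase that acts in assembly, passed in none of the 3, with -0.17, -0.28 and -0.45 for Ndufaf2 and -0.29, -0.24 and -0.16 for Ndufaf7. Ndufaf7 was called in the first experiment without LIN9 KO replicate 3 (-0.39, adjusted p = 0.0123), and Ndufaf2 with Sav1 deleted without double knockout replicate 3 (-0.59, 0.0378).

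**Figure D3:**
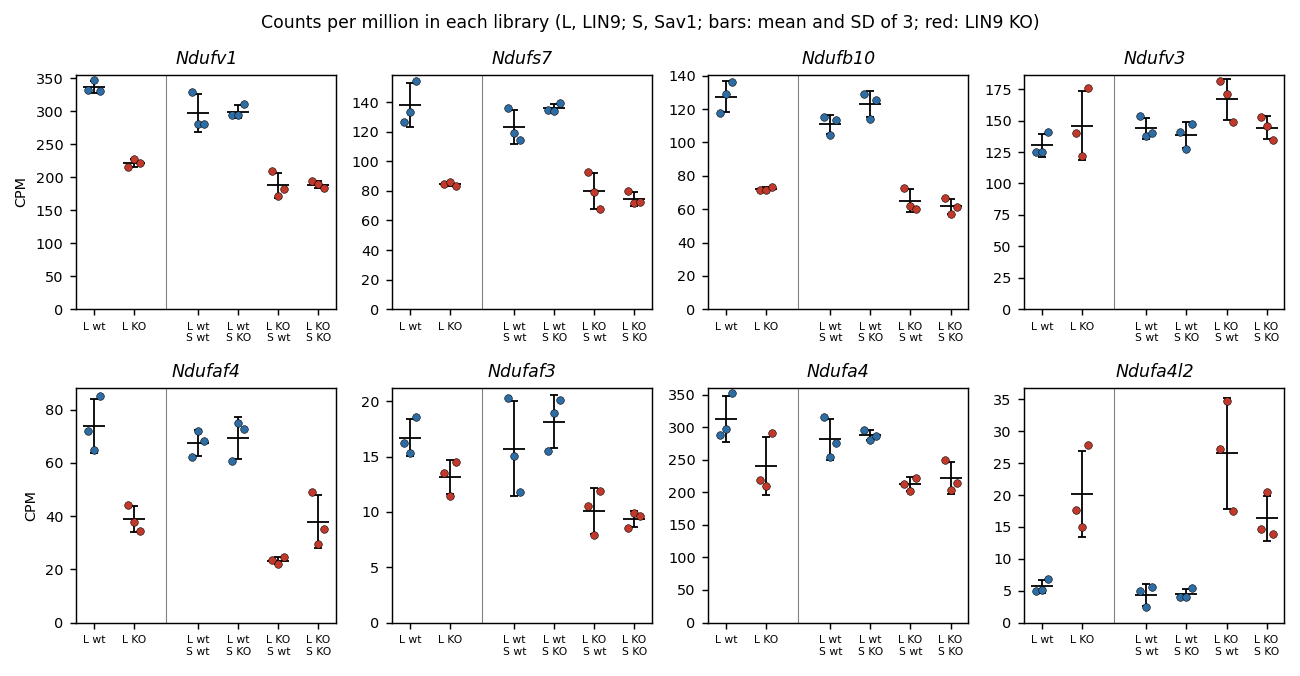
Normalized counts in CPM (vertical axes, from 0) of 8 members in each of the 18 libraries, by genotype (horizontal axes; L, LIN9; S, Sav1), with mean and SD of 3 libraries. Ndufv1, Ndufs7, Ndufb10 and Ndufaf4 are lower in all LIN9 KO libraries (red) than in the LIN9 wt libraries (blue), Ndufv3 overlaps between genotypes, and Ndufa4l2 is higher.

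Ndufa4 and Ndufa4l2 bear the family name by history. Ndufa4 is now counted as a subunit of cytochrome c oxidase, and Ndufa4l2 is a related protein known as a target of hypoxia-inducible factor. Ndufa4 was at 287, 297 and 353 CPM in LIN9 wt and 219, 209 and 291 CPM in LIN9 KO ventricles of the first experiment, with overlapping groups (-0.38, adjusted p = 0.0591; without LIN9 KO replicate 3, -0.54, adjusted p = 0.00162). In the second experiment it fell by 0.41 and 0.37 on the log2 scale (adjusted p = 0.00359 and 0.00756). Ndufa4l2 rose from 4.94, 5.16 and 6.86 CPM to 17.7, 15.0 and 27.9 CPM in the first experiment (1.83, standard error 0.24, adjusted p = 0.000166). In the second it was at 4.99, 2.40 and 5.53 CPM in controls, 4.04, 4.05 and 5.46 with Sav1 deleted, 27.3, 34.8 and 17.5 with Lin9 deleted and 14.7, 20.4 and 13.9 with both deleted. Within each experiment all LIN9 KO libraries were above all LIN9 wt libraries, and the increases were 2.62 with wild-type Sav1 and 1.84 with Sav1 deleted (adjusted p = 1.51e-07 and 5.30e-05). Its mean count per library was 12.7 in the controls of the second experiment.

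The rest of complex I and of the respiratory chain was described from lists of genes by function. Of 7 tested assembly factors without the Ndufaf name, 3, 4 and 3 fell and none rose (medians -0.33, -0.36 and -0.30). The largest changes in the first experiment were those of Tmem70 (-0.51, adjusted p = 0.00293), Acad9 (-0.41, 0.00715) and Tmem126a (-0.36, 0.0486). The 7 core subunits encoded in mitochondrial DNA were all negative, and 6, 7 and 3 of them fell, with medians of -0.51, -1.09 and -0.56. Of these, mt-Nd2 had the largest decrease in the first experiment, with -0.67, -1.19 and -0.75 in the 3 comparisons. All 4 subunits of complex II fell in each (medians -0.74, -0.72 and -0.71), Sdhc most in the first experiment (-0.90, adjusted p = 4.23e-05). Over the 35 tested nuclear genes of complexes III, IV and V, 27, 32 and 33 fell, with medians of -0.48, -0.55 and -0.56, next to -0.50, -0.60 and -0.58 for complex I. Among them Cyc1, the cytochrome c1 of complex III, had the largest decrease in the first experiment (-1.05, adjusted p = 1.02e-05). No difference between the complexes was tested.

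Markers of cell types moved with the deletion of Lin9 in the same libraries. Of 9 tested cardiomyocyte genes, 7 fell in each of the 3 comparisons (medians -0.92, -0.92 and -1.02), among them Myl2, the ventricular myosin light chain (-1.48, -1.65 and -1.48), while Actc1 is listed at 0. Their summed level was 20997 to 21798 CPM in LIN9 wt and 9693 to 13047 CPM in LIN9 KO ventricles of the first experiment. In the second it was 21956 to 22935 CPM in controls and 22906 to 24153 CPM with Sav1 deleted, against 10370 to 12960 CPM with Lin9 deleted and 10708 to 12865 CPM with both deleted. Erythroid genes rose, 8 of 8 tested in each comparison (medians 3.05, 2.84 and 2.58), as did 5, 5 and 6 of 6 mesenchymal and 5, 4 and 4 of 5 macrophage genes, 3 of 4 epicardial genes in each, 1, 2 and 2 of 4 atrial genes and 3, 3 and 5 of 7 endothelial genes, while 0, 1 and 1 endothelial genes fell. The summed erythroid level was 6293 to 8694 CPM in LIN9 wt and 30828 to 81193 CPM in LIN9 KO ventricles of the first experiment, and 2411 to 3981 CPM against 9218 to 34312 CPM in the second. Alas2 is listed at 0 there, and besides Alas2 and Actc1 no marker of these lists was at 0 in all libraries. With erythroid genes and genes of mitochondrial DNA left out before normalization, an alternative chosen after seeing the data, 30, 35 and 31 members were called lower. Over all genes, 1924 of 19720, 1841 of 17645 and 2054 of 17645 were then called lower. In bulk tissue, fewer cells of a type and less RNA per cell cannot be told apart, and the part of a changed cell makeup in the decrease of complex I transcripts was not tested.

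After deletion of Sav1 no member passed the test in either background. With Lin9 present, edgeR called 0 of 44 members at an adjusted p under 0.05 (0.017% of all genes), and 0 members had an unadjusted p under 0.05 (3.92% of all genes). The median over the subunits was -0.03, and their log2 fold changes ran from -0.23 (Ndufb3) to 0.15 (Ndufb10), with standard errors of 0.09 to 0.17. With single libraries left out, this median ran from -0.083 to 0.020. In the LIN9 KO background 0 members were called (0.0113% of all genes), and 4 had an unadjusted p under 0.05 (11.8% of all genes): Ndufaf4 (0.71, unadjusted p = 0.000158, adjusted p = 0.0978), Ndufa4l2 (-0.71, 0.00448 and 0.201), Ndufs8 (-0.24, 0.0485 and 0.417) and Ndufv3 (-0.21, 0.0462 and 0.411). DESeq2 called 0 members in both comparisons. Of all 17675 genes it called 1 lower and 1 higher with Lin9 present, and 22 lower and 24 higher with Lin9 deleted. Beside them, the mitochondrially encoded core subunits had a median of 0.60 in the LIN9 KO background, where 7 of 7 had an unadjusted p under 0.05 and none was called. Only 2 of these 7 had all double knockout libraries above all LIN9 KO libraries. By library medians against the controls, double knockout replicate 2 (-0.821) lay below LIN9 KO replicate 3 (-0.807). Without LIN9 KO replicate 3, 220 of all genes were called lower and 158 higher, against 2 and 0 with it, and Ndufaf4 (0.74, adjusted p = 0.0304) and Ndufa4l2 (-0.93, 0.0174) were called, while Ndufaf4 was also called without double knockout replicate 2 (0.86, adjusted p = 0.0304).

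The interaction term asked whether the effect of Sav1 loss depended on Lin9. It called 0 of 44 members by edgeR and by DESeq2 (0 of all 17675 genes by either), and 1 member had an unadjusted p under 0.05 by edgeR (6.54% of all genes). Without LIN9 KO replicate 3 of the wild-type Sav1 group, 15 of 17650 genes were called lower and 49 higher, with 0 members among them. The member with an unadjusted p under 0.05 was Ndufaf4, with a difference of 0.66 (95% interval 0.23 to 1.10, unadjusted p = 0.00396, adjusted p = 0.678), so that its smaller LIN9 effect in the Sav1 KO background did not pass the adjustment (without LIN9 KO replicate 3, adjusted p = 0.237). Against the controls, double knockout ventricles had 33 members lower and 1 higher (all genes, 9.96% lower and 10.7% higher). Without control replicate 1, 25 members were lower and 1 higher (all 17671 genes, 1268 lower and 1404 higher). This comparison shares its libraries with those above. All 7 core subunits, 21 of 28 accessory subunits and 4 of 7 assembly factors fell, with medians of -0.66, -0.53 and -0.43, and the largest decreases were those of Ndufb7 (-0.86), Ndufs6 (-0.86) and Ndufb10 (-0.85).

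**Figure D4:**
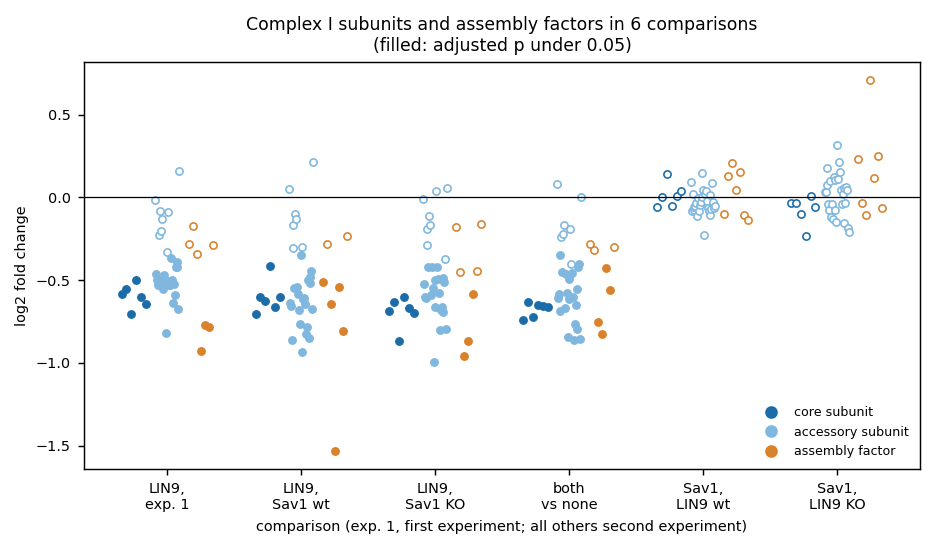
Log2 fold changes (vertical axis) of the core subunits, accessory subunits and Ndufaf assembly factors in 6 comparisons (horizontal axis), 1 point per gene, filled where the adjusted p is under 0.05. The 4 comparisons that involve Lin9 hold points mostly between -1.0 and -0.3 with few above 0, and the 2 Sav1 comparisons lie around 0 with no filled point; Ndufaf4 gives the lowest point (-1.53) and, with Lin9 deleted, the highest Sav1 value (0.71).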

How the data were processed

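Poly(A) RNA libraries of 18 ventricle samples were analysed; 4 ChIP-seq samples were not analysed here. The authors aligned reads to mm10 with TopHat 2.1.0 and Bowtie2, brought samples down to the smallest number of mappable reads and deposited whole-number counts per Ensembl gene (GRCm38.p6) for each experiment; the overlap mode and the use of strand are not given in the sources used here. Deposited columns of the authors' own comparisons (fold changes and p-values) were not used. Repeated identifiers (4 in each experiment) were kept once.

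Counts were tested with edgeR 4.0.16 (quasi-likelihood test, TMM, R 4.3.3) over genes with a mean count above 1, with Benjamini-Hochberg adjustment over all tested genes and a threshold of 0.05; the second experiment was 1 fit of 12 libraries. The code was tested on simulated data. The 2 tables were tested separately. With totals of 2770741 to 9615274 counts, 1 CPM is 2.77 to 9.62 reads. Exonic lengths and overlaps came from GENCODE M21, and near-identical copies were sought at 95% identity over at least 50% of the longest protein-coding transcript.

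Members and gene lists were chosen with earlier results of these data known. 1 core subunit enters the counts and medians, and its own values are not reported here. Values are given for core subunits, assembly factors, Ndufa4, Ndufa4l2, the 5 accessory subunits with the largest and the 3 with the smallest decrease (or largest increase) in the first experiment, members called against the majority, the highest and lowest per kb, and up to 3 genes of other lists by size of change; other members are named after their values were seen. Alternatives were DESeq2 1.42.0, RLE factors, total counts, filterByExpr, no filter, a replicate block, fits to 2 groups alone and leaving out each library; leaving out erythroid and mitochondrial genes was added after seeing the data. Replicate numbers name no shared litter or day in the labels. Over all tested genes, no comparison had correlations of same-numbered deviations above 0.1 in all 3 pairs, so no block was used.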

Additional observations from a re-analysis of the deposited data

How the results depend on the processing

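The 3 counts of members lower with LIN9 loss (30, 34 and 31) ran from 26 to 35, 30 to 35 and 29 to 32 when single libraries were left out, and that of double knockout against control (33) from 25 to 37. In the same fits, lower calls over all genes ran from 1249 to 1918, 1395 to 2024 and 1475 to 2037 with LIN9 loss. For the double knockout they ran from 1268 to 1883. Of 2106 values of single genes under other settings, 2008 kept their direction and side of the threshold, 44 lost a call, 36 gained one and 18 changed sign. The cause was not tested. These values cover all tested members, Lin9 and Sav1 in the LIN9 comparisons. Elsewhere they cover only Ndufaf4 and Ndufa4l2, with Lin9 and Sav1 outside the interaction, and Ndufb10 in the double knockout. Other members were not followed there. Called assembly factors with wild-type Sav1 went from 5 to 3 with DESeq2 and were 3 to 5 with single libraries left out. With Sav1 deleted they went from 3 to 5 in the fit to 2 groups alone, and their median of -0.45 ran from -0.56 to -0.42 with single libraries left out. Lower calls over all genes went from 1849 to 1388 with DESeq2 (wild-type Sav1). In the fit to 2 groups alone (Sav1 deleted) they went from 2055 to 2405. For Sav1 loss with Lin9 deleted, 1 member was called lower (Ndufa4l2) and 1 higher (Ndufaf4) with no filter (all 23826 genes, 163 lower and 146 higher, against 2 and 0 of 17675 with the filter), and 0 to 1 in each direction with single libraries left out.

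The sign changes were all of values that had not passed the threshold, and all but 1 came from leaving out single libraries, with these ranges. In the first experiment Ndufa1 ran from -0.0843 to 0.0991 (above 0 without LIN9 KO replicate 2 or LIN9 wt replicate 3) Ndufa3 from -0.242 to 0.0487 and Ndufb3 from -0.222 to 0.0944. With wild-type Sav1 Ndufa1 ran from -0.0685 to 0.0971. With Sav1 deleted Ndufa1 ran from -0.188 to 0.119 (0.00153 under filterByExpr), Ndufv3 from -0.0136 to 0.106, Ndufb3 from -0.102 to 0.0757, Lin9 from -0.326 to 0.0189 and Sav1 from -0.0282 to 0.0971. For Sav1 loss with Lin9 present Lin9 ran from -0.272 to 0.0738, Ndufaf4 from -0.0244 to 0.121 and Ndufa4l2 from -0.233 to 0.280.

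In the paired fit (replicate block), 33, 35 and 34 members were lower with LIN9 loss, where lower calls over all genes also went from 1932 to 2372, 1849 to 1993 and 2055 to 2212, and the block moved no count of members by over 1.5 times; it added calls of Ndufa4, Ndufaf7 and Ndufb11 in the first experiment (adjusted p = 0.00215, 0.0415 and 0.00711), of Ndufa2 with wild-type Sav1 (0.0265), and of Ndufaf6, Ndufa2 and Ndufs5 with Sav1 deleted (0.0455, 0.0367 and 0.0476). The pairing check depends on the genes used: over genes with a mean count above 20, a threshold chosen after seeing the data, same-numbered libraries correlated in all 3 pairs for LIN9 loss with wild-type Sav1 (0.280 to 0.663) and Sav1 loss with Lin9 present (0.115 to 0.352). Depth limits Ndufa4l2 most, with a mean of 12.7 counts per library in the controls of the second experiment.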
